A study of Mus musculus with 24 samples.

Results

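The mRNA levels of 10 antioxidant response and metallothionein genes were compared between hypertrophic and control left ventricles of the mouse. The genes were chosen by name, as rows of the deposited expression table whose symbol is *Nfe2l2*, *Gclc*, *Gclm*, *Gsr*, *Txnrd1*, *Srxn1*, *Nqo1*, *Hmox1*, *Mt1* or *Mt2*. All 10 were found among 14912 genes, and all 10 passed the filter on low values with 14026 genes tested in total. The ANG II group (the hypertensive-LVH group) held 12 mice that received angiotensin II, a peptide hormone that raises blood pressure, at 1500 ng/kg/min for 7 days from osmotic pumps under the skin, and the control group held 12 mice that received saline for the same 7 days. All mice were wild-type males of the C57BL/6J strain, their age was not given in the sources used here, and the hearts were flushed with saline before RNA was taken. The samples were whole pieces of ventricle that hold many cell types, so more cells of a type and more RNA per cell cannot be told apart in any value below.

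The antioxidant response is driven by Nrf2, the transcription factor encoded by *Nfe2l2*. In resting cells Keap1 holds Nrf2 and directs it to degradation. Oxidants and electrophiles modify Keap1, and Nrf2 then accumulates, enters the nucleus and binds antioxidant response elements in its target genes. These targets supply glutathione (*Gclc*, *Gclm*), recycle it (*Gsr*), keep thioredoxin and peroxiredoxins reduced (*Txnrd1*, *Srxn1*), detoxify quinones (*Nqo1*) and break down heme (*Hmox1*). Metallothioneins are small cysteine-rich proteins that bind zinc and copper and scavenge radicals. *Mt1* and *Mt2* are induced by metals through MTF-1, which binds metal response elements, and also by glucocorticoids and oxidative stress.

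*Mt2* and *Mt1* are neighbours on chromosome 8 of GRCm38, where *Mt2* lies at chr8:94172664-94173568 and *Mt1* at chr8:94179082-94180327, both on the plus strand. The 5513 bases between them hold 0 annotated genes. Their promoters are shown because these genes had the highest deposited levels of the 10 and varied together, and the promoter of *Gclm* is shown because it passed every test of the group difference reported here. The sequences are the 250 bases before the RefSeq transcription start (GRCm38.p6), written along the plus strand, which is the gene strand in each case. In *Mt2* (chr8:94172368-94172617) and *Mt1* (chr8:94178839-94179088) the capitals mark the core of the metal response element, and in *Gclm* (chr3:122245307-122245556) they mark the core of the antioxidant response element.
Mt2: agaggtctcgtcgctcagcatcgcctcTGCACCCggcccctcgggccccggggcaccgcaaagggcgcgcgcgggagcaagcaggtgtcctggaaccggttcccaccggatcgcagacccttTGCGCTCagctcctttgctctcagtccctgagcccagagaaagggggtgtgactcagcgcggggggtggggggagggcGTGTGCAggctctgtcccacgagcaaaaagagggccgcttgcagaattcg
Mt1: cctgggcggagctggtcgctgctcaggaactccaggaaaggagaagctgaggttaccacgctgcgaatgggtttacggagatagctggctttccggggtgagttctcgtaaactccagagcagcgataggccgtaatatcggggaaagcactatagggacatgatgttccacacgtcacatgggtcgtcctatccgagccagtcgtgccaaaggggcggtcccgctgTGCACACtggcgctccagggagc
Gclm: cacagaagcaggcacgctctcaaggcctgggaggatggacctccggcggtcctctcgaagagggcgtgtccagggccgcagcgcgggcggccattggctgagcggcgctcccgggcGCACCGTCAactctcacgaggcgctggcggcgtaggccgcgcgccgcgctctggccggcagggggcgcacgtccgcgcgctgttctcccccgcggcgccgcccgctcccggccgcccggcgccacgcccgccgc

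The metal response core was searched as TGCACNC or TGCGCNC on both strands. It occurred 3 times in the *Mt2* window and 1 time in the *Mt1* window, and of 32817 mouse promoter windows of 250 bases 21.4% held at least 1 and 1.26% held at least 3. The *Gclm* window also held 2 matches to it and the *Srxn1* window 1. The antioxidant response core was searched as TGACNNNGC or TGAGNNNGC on both strands, and 23% of all windows held at least 1 and 3.18% at least 2. *Srxn1* had 2 matches, *Gclm*, *Mt2* and *Nfe2l2* had 1 each, *Txnrd1* had 1 in 1 of its 3 windows, and *Nqo1* and *Mt1* had 0. These matches describe letters within a short window and do not show binding. Bases outside the window were not searched, so the 1 match of *Mt1* is a count for its window and not for the gene. The *Mt2* window ended at 94172617, before the annotated start of the gene at 94172664, and the bases between were not searched either. Windows were found for 7 of the 10 genes, and those of *Hmox1*, *Gclc* and *Gsr* were not used here.

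The deposited values are given in FPKM, the fragments of a gene per kilobase of transcript and scaled to the mapped fragments of the sample. They are not plain FPKM, since 2741 values (0.766%) were negative. Exact ties divided the samples into 4 sets, within which most genes had been shifted and scaled. Set 1 held samples 1 to 3 of each group, set 2 held 4 to 6, set 3 held 7 to 9, and set 4 held 10 to 12. Between 215 and 541 genes were tied in a pair of samples of one group within a set, and 0 in a pair from different sets. *Mt2* was 1 of 278 genes whose values were whole hundredths in every sample, that is, plain FPKM, whereas the values of the other 9 genes had been adjusted. For these the differences within a set were recovered from the step of 0.01 FPKM to which the values had been rounded before the adjustment, but the offset of a set could not be recovered, so the order of levels between genes holds for the values as deposited only. The number of reads per sample is not in the table, and the values of a sample summed to between 482319 and 567727 in the control group and between 460715 and 515185 in the ANG II group. Markers fitted the labelled tissue, since the 10 cardiomyocyte markers together ranged from 50252 to 63751 FPKM in control samples and from 38421 to 54831 in ANG II samples.

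Of the 10 genes, 6 were higher in the ANG II group and 0 were lower at an adjusted p under 0.05. Over all genes tested, 33.5% passed in either direction, with 20.9% higher and 12.6% lower. The fit was limma on log2(FPKM + 1) with negative values set to 0 and Benjamini-Hochberg adjustment over all 14026 genes, and each fold change below is on this scale. *Hmox1*, *Mt2*, *Mt1*, *Gclm*, *Nfe2l2* and *Gclc* passed. The size of the change divided them, because *Hmox1*, *Mt2* and *Mt1* also exceeded a log2 fold change of 0.5, which 4.52% of all genes did in this direction and 1.4% in the other, and the other 3 lay between 0.19 and 0.40. For none of the 10 genes were the groups of 12 free of overlap, a separation that 0.756% of all genes showed. Only the differences of *Gclm*, *Gclc* and *Hmox1* had the same direction in all 4 sets as deposited.

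**Figure D1:**
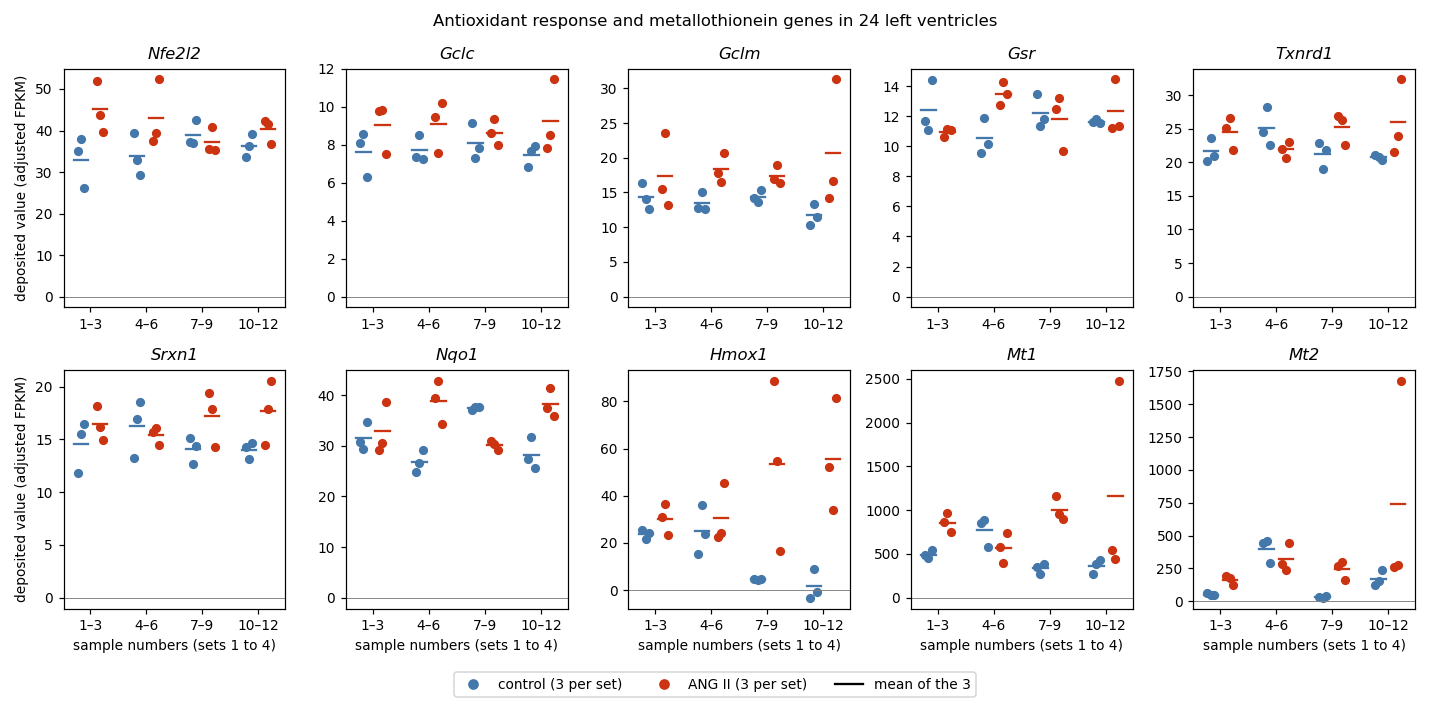
Deposited values (adjusted FPKM, linear axes) of the 10 genes in 12 control (blue) and 12 ANG II (red) left ventricles, drawn by set of samples, with a bar at the mean of 3. *Gclm* and *Gclc* means were higher with ANG II in all 4 sets, *Hmox1* rose mainly in sets 3 and 4, and *Nqo1* was lower with ANG II in set 3.

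**Figure D2:**
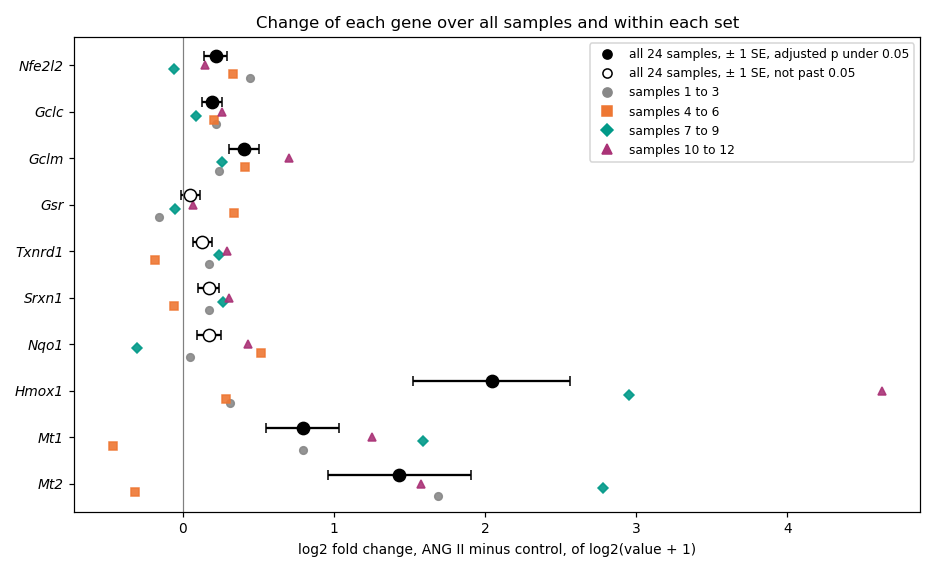
Log2 fold changes of ANG II against control for each gene, over all 24 samples (large circles with 1 SE, filled where the adjusted p was under 0.05) and within each set of 3 and 3 samples (small symbols). The within-set changes of *Hmox1*, *Mt1* and *Mt2* spread far more than those of *Gclm* and *Gclc*.

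*Nfe2l2*, the regulator, was higher by a small amount. Control values ranged from 26.1 to 42.5 FPKM with a median of 36.6, and ANG II values from 35.2 to 52.3 with a median of 40.3. The groups overlapped over much of their range, with 10 of 12 ANG II samples above the control median and 3 above every control. The group means were 35.5 ± 4.53 (SD, n = 12) and 41.4 ± 5.66, a log2 fold change of 0.22 with an SE of 0.073 (limma, adjusted p = 0.0261). Before the adjustment the ANG II mean was above the control mean by 14.3 FPKM in set 1 and 9.57 in set 2, and by 0.34 and 4.76 in the later sets. The first pair of sets thus carried most of the difference. In set 3 the deposited values put ANG II below control, by -1.63 FPKM, so the adjustment turned the direction there. Without set 1 the log2 fold change was 0.14 and the adjusted p 0.166 (limma), without set 2 or 4 it was 0.130 or 0.0666, and without ANG II sample 6 alone the adjusted p was 0.0504.

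The pair of genes for glutathione synthesis rose together. *Gclc* encodes the catalytic subunit and *Gclm* the modifier subunit of glutamate-cysteine ligase, the rate-limiting enzyme of glutathione synthesis. *Gclm* ranged from 10.3 to 16.4 FPKM in control samples with a median of 13.5, and from 13.2 to 31.3 in ANG II samples with a median of 16.8. The group means were 13.5 ± 1.69 and 18.5 ± 4.90 (SD, n = 12), and 8 of 12 ANG II samples were above every control. The log2 fold change was 0.40 with an SE of 0.10 (limma, adjusted p = 0.0036), and it stayed between 0.30 and 0.46 when any one set was left out, with the adjusted p under 0.05 each time. Before the adjustment the ANG II mean was above the control mean in every set, by 2.41, 5.40, 4.77 and 10.1 FPKM. ANG II sample 12 was 26.6 FPKM above the control mean of its set, and without it the last of these was 1.88. Of the 31-base words of the *Gclm* transcripts, 5.61% also occurred in transcripts of other genes, chiefly *Ppia*, so its reads may be shared to that extent.

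*Gclc* ran at a lower level with less spread. Control values ranged from 6.30 to 9.16 FPKM with a median of 7.75, and ANG II values from 7.50 to 11.4 with a median of 8.98. The means were 7.73 ± 0.797 and 9.00 ± 1.21 (SD, n = 12), a log2 fold change of 0.19 with an SE of 0.064 (limma, adjusted p = 0.0219). Before the adjustment the differences in the 4 sets were 1.31, 1.41, 0.94 and 1.78 FPKM, all in one direction, the last being 0.593 without ANG II sample 12. The call depended on the scaling, with an adjusted p of 0.0586 for median-ratio scaling and 0.133 for quantile normalization (limma), and it was lost without set 1, 2 or 4 (adjusted p = 0.0584, 0.0854 and 0.0886). Once the means of groups and sets were removed, *Gclc* and *Gclm* had a Pearson r of 0.75 across the 24 samples, given as a description. ANG II sample 12 held the highest value of both genes, and r without it was not computed.

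*Gsr*, the glutathione reductase that returns oxidised glutathione to its reduced form, showed the smallest difference of the 10. It ranged from 9.55 to 14.4 FPKM in control samples and from 9.70 to 14.4 in ANG II samples, with medians of 11.7 and 11.9. The log2 fold change was 0.05 with an SE of 0.064 (limma, adjusted p = 0.584), and its sign turned under quantile normalization and without set 2. Before the adjustment ANG II was lower by -2.32 FPKM in set 1 and higher by 2.69 in set 2.

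*Txnrd1* and *Srxn1* did not pass the test. *Txnrd1*, the cytosolic thioredoxin reductase, had means of 22.2 ± 2.47 and 24.4 ± 3.26 FPKM (SD, n = 12) and a log2 fold change of 0.13 with an SE of 0.065 (limma, adjusted p = 0.125). Although 11 of 12 ANG II samples lay above the control median, 1 lay above every control. *Srxn1*, the sulfiredoxin that restores overoxidised peroxiredoxins, had means of 14.7 ± 1.93 and 16.7 ± 2.08 FPKM and a log2 fold change of 0.17 with an SE of 0.069 (limma, adjusted p = 0.0577). Both had the same pattern across sets, higher with ANG II in 3 of them and lower in set 2, by -4.60 FPKM for *Txnrd1* and -1.37 for *Srxn1* before the adjustment. Without set 2 both passed, with log2 fold changes of 0.23 (limma, adjusted p = 0.0169) and 0.25 (adjusted p = 0.0244). *Txnrd1* also passed without control sample 5 (limma, adjusted p = 0.0479), and *Srxn1* without any one of control samples 3, 5 and 6 or ANG II samples 3, 6, 9 and 10 (adjusted p from 0.0246 to 0.0490).

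*Nqo1*, the quinone reductase that is widely used as a readout of Nrf2, went in opposite directions in different sets. Over all samples the control values ranged from 24.7 to 37.7 FPKM with a median of 30.1, and the ANG II values from 29.2 to 42.9 with a median of 35.1. The log2 fold change was 0.17 with an SE of 0.080 (limma, adjusted p = 0.0990), which does not pass. Within sets 2 and 4 every ANG II sample was above every control, and before the adjustment the means differed by 12.7 and 9.23 FPKM. Within set 3 every ANG II sample was below every control, by a mean of -11.1 FPKM. In set 1 the groups overlapped, with a mean difference of 0.893. The difference between sets was itself past the threshold (limma, set-by-group interaction, adjusted p = 0.00484), as it was for 7.49% of all genes. Without set 3 the log2 fold change was 0.33 (limma, adjusted p = 0.00550).

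*Hmox1*, the inducible heme oxygenase that turns heme into biliverdin, carbon monoxide and iron, had the largest log2 fold change of the 10 genes over all samples, though without set 4 it was below that of *Mt2* (1.18 against 1.38). Control values ranged from -3.16 to 36.1 with a median of 12.3 FPKM, and ANG II values from 16.5 to 88.8 with a median of 35.1. All 12 ANG II samples lay above the control median and 6 above every control, while 5 of the control samples, all in sets 1 and 2, lay above the lowest ANG II sample. The means were 13.9 ± 12.3 and 42.5 ± 23.2 FPKM (SD, n = 12), a ratio of 3.06. In sets 1 to 4 the deposited control means were 23.9, 25.1, 4.74 and 1.81 FPKM. The ANG II means were 30.3, 30.7, 53.4 and 55.8. The offsets of the sets are unknown, so the ratio, the overlap of the groups and the log2 fold change hold for the deposited values only. On the log2 scale the change was 2.04 with an SE of 0.52 (limma, adjusted p = 0.00413), with 2 negative control values, -3.16 and -0.562, set to 0. Both lie in set 4, so the log2 fold change includes control values that the adjustment had taken below 0.

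The recovered differences of *Hmox1* within the sets hold no such values. ANG II was above control by a mean of 4.81 FPKM in set 1 and 7.58 in set 2, with overlapping groups. It was higher by 55.8 FPKM in set 3 and 54.8 in set 4, and there every ANG II sample was above every control. The rise in set 3 was uneven, with the ANG II samples at 105, 57.8 and 4.70 FPKM above the control mean of the set. The interaction of set and group was past the threshold (limma, adjusted p = 0.0098). That fit, like those below, used the deposited log2 values, with the negative control values of set 4 set to 0, and not the recovered differences. Without set 3 the log2 fold change was 1.74 and the adjusted p 0.0507 (limma), and without set 4 it was 1.18 (adjusted p = 0.0369). Without set 2 it was 2.63 (limma, adjusted p = 0.00444).

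Markers of other cells differed between the groups as well, beside 20.9% of all genes tested that were higher and 12.6% that were lower. Over all samples the 12 macrophage and monocyte markers were all higher in the ANG II group, and their summed level was 278 to 627 FPKM in control and 378 to 1099 in ANG II samples. Of 8 red blood cell markers, 6 were higher, with sums of 92.4 to 2951 FPKM in control and 780 to 6452 in ANG II samples. Of 10 fibroblast markers 5 were higher, of 10 endothelial markers 2 were higher and 1 lower, of 6 neutrophil markers 1 was higher, and of 10 cardiomyocyte markers 6 were lower. Atrial myocyte markers gave 0 higher and 2 lower of 6, and adipocyte markers 0 of 5 in either direction. Leaving out set 2 cut the calls over all genes from 2928 to 1173 higher (limma). It left 0 of the 12 macrophage markers called higher, with 7 at an unadjusted p under 0.05. Their median log2 fold change was 0.45 against 0.65 over all samples. In the same fit 1 of the 10 fibroblast and 6 of the 8 red blood cell markers were called higher. Without set 1, 3 or 4, 11, 9 and 10 macrophage markers were called higher. For fibroblast markers these counts were 4, 5 and 4, and for red blood cell markers 6, 5 and 4. The part of these cells in the change of *Hmox1* or of the other genes was not tested.

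*Mt1* and *Mt2* had the highest mean deposited values of the 10 genes in both groups. *Mt1* ranged from 267 to 885 FPKM in control samples with a median of 441, and from 396 to 2482 in ANG II samples with a median of 804. Of the ANG II samples, 10 of 12 were above the control median and 5 above every control. The means were 491 ± 202 and 898 ± 550 FPKM (SD, n = 12), a log2 fold change of 0.79 with an SE of 0.24 (limma, adjusted p = 0.0143). *Mt2* ranged from 27.6 to 461 FPKM in control samples with a median of 92.2, and from 128 to 1681 in ANG II samples with a median of 263. All 12 ANG II samples were above the control median, but 1 was above every control. The means were 163 ± 159 and 368 ± 422 FPKM (SD, n = 12), a log2 fold change of 1.43 with an SE of 0.47 (limma, adjusted p = 0.0222), whereas a Wilcoxon rank-sum test over all genes gave an adjusted p of 0.10. An antisense gene, *Gm45774*, overlaps *Mt2*, and the strand setting of the counting is not given in the sources used here.

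The highest *Mt2* values of the control group were those of samples 4, 5 and 6, at 441, 461 and 288 FPKM. The other 9 control samples ranged from 27.6 to 241. *Mt2* was deposited as plain FPKM, so any difference between the sets is still in these levels, and the control means were 50.9, 396, 34.0 and 172 FPKM in sets 1 to 4. ANG II samples 4, 5 and 6 stood at 284, 237 and 447 FPKM, so in this set the ANG II mean was below the control mean, by -73.4. In sets 1, 3 and 4 every ANG II sample was above every control, by means of 115, 209 and 567 FPKM. The last of these was 96.0 without ANG II sample 12, at 1681 FPKM. The interaction of set and group was past the threshold for *Mt2* (limma, adjusted p = 0.0347). Without set 1, 3 or 4 the adjusted p of the group difference was 0.0744, 0.152 or 0.0595 (limma).

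*Mt1* had the same pattern of sets before the adjustment, with mean differences of 367 FPKM in set 1, -84.3 in set 2, 541 in set 3 and 1125 in set 4. The last value rested on 1 mouse. ANG II sample 12 was 3514 FPKM above the control mean of its set, while ANG II samples 10 and 11 were at 29.7 and -168 FPKM from it, so that without sample 12 the mean difference of the set was -69.2. The interaction did not pass for *Mt1* (limma, adjusted p = 0.0895). ANG II sample 12 also held the highest deposited value of *Mt2*, *Gclm*, *Gclc*, *Txnrd1* and *Srxn1*. Without it the log2 fold changes were 0.64 for *Mt1* (limma, adjusted p = 0.0189) and 1.20 for *Mt2* (adjusted p = 0.0370). The adjusted p of *Mt1* was 0.0648 without set 1 and 0.172, with a log2 fold change of 0.53, without set 3 (limma).

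**Figure D3:**
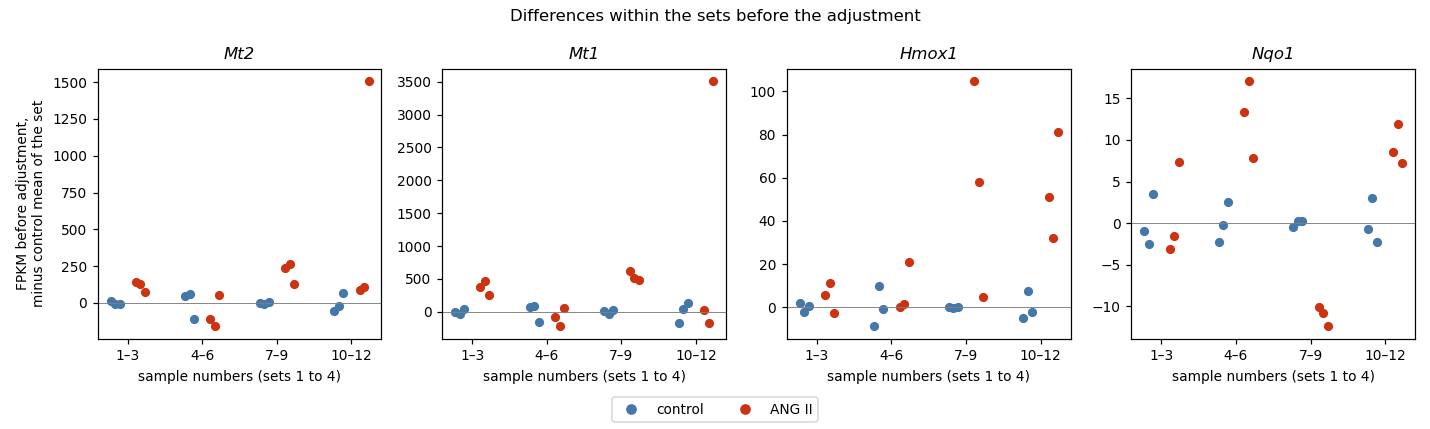
FPKM before the adjustment of *Mt2*, *Mt1*, *Hmox1* and *Nqo1*, as the difference from the control mean of the same set (linear axes), for each control (blue) and ANG II (red) sample. ANG II sample 12 stood at 3514 FPKM for *Mt1*, and for *Nqo1* all 3 ANG II samples lay above their controls in sets 2 and 4 and below them in set 3.

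The 2 metallothioneins varied together from mouse to mouse. With the means of groups and sets removed, Pearson's r of their log2 values was 0.942 and Spearman's rho 0.941 over 24 samples (permutation p = 1e-05 for each, the smallest that 100000 resamples can give), and r was 0.924 once the 2 samples with the most extreme *Mt1* values against its median were left out. Within the sets r was 0.946, 0.954, 0.984 and 0.986 over 6 samples each, which still include both groups. The transcripts of *Mt1* shared 0 words of 31 bases with those of any other gene. This pair was 1 of 45 pairs among the 10 genes. The next highest values, given as a description, were those of *Txnrd1* with *Mt1* (0.83) and with *Mt2* (0.80), and the lowest was that of *Nqo1* with *Mt2* (-0.69). ANG II sample 12 held the highest value of *Txnrd1*, *Mt1* and *Mt2*, and the values for *Txnrd1* were not computed without it.

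**Figure D4:**
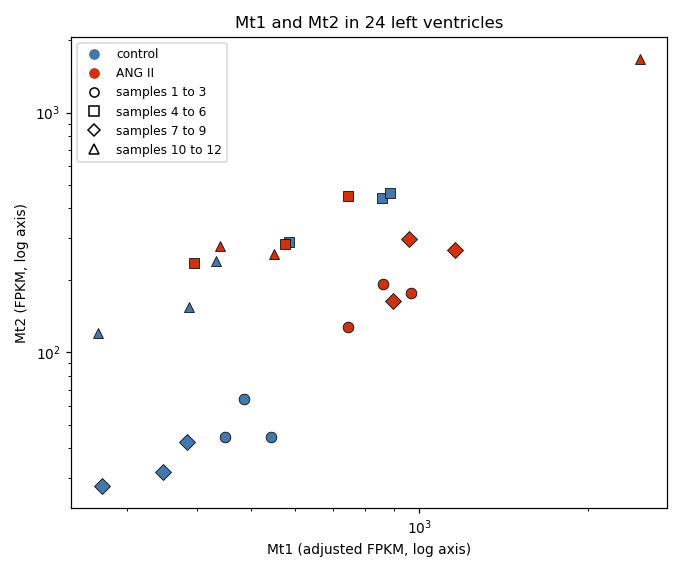
*Mt1* (adjusted FPKM) against *Mt2* (FPKM) in each of 24 left ventricles on log axes, with colour for the group and shape for the set. The control samples of set 2 lie among the ANG II samples, and ANG II sample 12 lies apart at 2482 and 1681 FPKM.

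The genes of at least 1 FPKM whose values followed those of each gene most closely, after group and set means were removed, were described over the 24 samples, which share libraries and sets. Beside *Mt1*, *Mt2* was followed by *Ifrd1* (r = 0.87) and *Rrs1* (0.85), and *Mt1* by *Midn* (0.85). *Tgm2* (0.76), a transglutaminase, was among the 3 genes most like *Hmox1*. For *Gclm* the genes were *Limd1* (0.80) and *Tlr4* (0.77), for *Gclc* *Acer2* (0.89), for *Gsr* *Bola2* and *Cbr3* (both 0.84), for *Txnrd1* *Ampd3* (0.85), for *Srxn1* *Bcl3* (0.79), for *Nqo1* *Tcta* (0.80) and for *Nfe2l2* *Safb2* (0.81).

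By the deposited values per length, whose set offsets are unknown for all of the genes but *Mt2*, the mean levels in control ventricles fell in the order *Mt1*, *Mt2*, *Nfe2l2*, *Nqo1*, *Txnrd1*, *Srxn1*, *Hmox1*, *Gclm*, *Gsr* and *Gclc*. *Mt1* was above *Mt2* in 12 of 12 samples. *Srxn1* and *Hmox1*, and *Hmox1* and *Gclm*, could not be ordered, with the first of each pair above the other in 6 of 12 samples. In ANG II ventricles *Hmox1* came after *Mt2* by its mean but was above *Nfe2l2* in 4 of 12 samples, so these did not differ beyond their spread. *Gclm* came above *Srxn1*, in 7 of 12 samples. *Gclc* had the lowest mean in both groups.

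The group differences were also tested by permutation. For all of the genes but *Mt2* the deposited values came from an adjustment that had used the groups. Tests that relabel the deposited values are therefore not independent of the groups for those genes. A permutation test of the difference in mean log2 values over all 24 samples, adjusted over all genes, passed for the same 6 genes, with adjusted p of 0.002 for *Gclm*, 0.00373 for *Hmox1*, 0.0212 for *Mt1*, 0.0229 for *Gclc*, 0.027 for *Nfe2l2* and 0.0342 for *Mt2*. An exact permutation within the sets (160000 relabelings) gave adjusted p of 0.00374, 0.00615, 0.0294, 0.0391, 0.0459 and 0.00764 in the same order. On the differences before the adjustment the exact test within the sets, unadjusted over these 10 genes, gave p = 0.00128 for *Hmox1*, 0.00178 for *Gclm*, 0.00465 for *Nfe2l2*, 0.00753 for *Gclc*, 0.0102 for *Mt1* and 0.0129 for *Mt2*. For the other 4 genes this exact p was 0.0593 for *Srxn1*, 0.230 for *Txnrd1*, 0.237 for *Nqo1* and 0.605 for *Gsr*. Of the 40 differences of 10 genes in 4 sets, 32 were higher with ANG II as deposited and 34 before the adjustment. This is a description only, since no such count was made over all genes, whose median log2 fold change was 0.05. The 40 differences are also not independent, because some of the genes, such as *Mt1* and *Mt2*, varied together.

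The other genes of these pathways went both ways. Of 179 genes tested in 9 lists, 41 were higher and 48 lower. Of all genes tested, 20.9% were higher and 12.6% lower, with a median log2 fold change of 0.05, and the counts of each list below stand beside these shares. Quantile normalization gave 32 higher and 58 lower and median-ratio scaling 34 and 55, and over all genes the 2928 higher and 1769 lower became 1922 and 2930, and 2397 and 2235. Without set 2 the lists had 24 higher and 41 lower, and all genes together had 1173 higher and 1629 lower. Of the 24 genes for quinone, carbonyl and epoxide detoxification 2 were then higher in place of 7.

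Among 12 regulators and partners of Nrf2, 2 were higher and 1 lower, with a median log2 fold change of 0.10. *Sqstm1*, the autophagy receptor p62 that binds Keap1, was higher by 0.30 (limma, adjusted p = 0.00305), from 251 ± 28.7 to 310 ± 45.6 FPKM (SD, n = 12). *Dpp3*, a peptidase that also binds Keap1, was higher by 0.22, and *Rbx1*, the RING subunit of the ligase that Keap1 serves, lower by -0.15. *Keap1* itself had a log2 fold change of -0.08 (adjusted p = 0.135) and *Bach1*, the repressor of *Hmox1*, 0.11 (adjusted p = 0.252). *Keap1* and *Bach1*, with *Fth1*, *Mtf1*, *Pdk4* and *Slc7a11* below, were named after their values were seen.

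Of 21 genes of glutathione supply and peroxidases, 5 were higher and 6 lower. *Gpx3*, the secreted peroxidase, was higher by 0.91 on the log2 scale, *Gpx7* of the secretory pathway by 0.65, and *Glrx5*, a mitochondrial glutaredoxin, was lower by -0.43 and *Ggct* by -0.29. The cystine carrier *Slc7a11* had 0.00 (adjusted p = 0.966). The 21 glutathione transferases had 0 higher and 13 lower, with a median of -0.25. *Gstk1*, the mitochondrial and peroxisomal kappa enzyme, went from 96.5 ± 12.6 to 50.3 ± 9.49 FPKM (log2 fold change -0.94, limma, adjusted p = 5.6e-07) and was lower in all 4 sets, and *Gstp2*, whose reads can be shared with its near-identical neighbour *Gstp1*, was lower by -0.74.

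Of 22 thioredoxins and peroxiredoxins, 4 were higher and 8 lower. The cytosolic *Txn1*, the substrate of *Txnrd1*, was higher by 0.27 and *Prdx4* of the endoplasmic reticulum also by 0.27, while *Prdx5* was lower by -0.58 and the mitochondrial *Msrb2* by -0.41. Of 16 genes of NADPH supply, 4 were higher and 2 lower. The largest rises were those of *Mthfd2* (0.54) and *G6pdx* (0.34), the entry enzyme of the pentose phosphate pathway. *Idh2* (-0.24) and *Me3* (-0.19) were lower. Of 24 genes for quinone, carbonyl and epoxide detoxification, the list to which *Nqo1* is closest, 7 were higher and 9 lower. *Akr1b8* was higher by 0.85 and the exporter *Abcc3* by 0.50, and the carboxylesterase *Ces1d* was lower by -0.87 and aldose reductase *Akr1b3* by -0.53.

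Of 23 heme and iron genes, 3 were higher and 8 lower. *Ftl1*, the ferritin light chain, rose from 272 ± 74.9 to 507 ± 121 FPKM (log2 fold change 0.90, limma, adjusted p = 5.55e-05) and was higher in all 4 sets, and *Cd163*, the macrophage receptor for hemoglobin bound to haptoglobin, was higher by 0.55. *Alad* and *Uros*, both of heme synthesis, were lower by -0.43 and -0.37. The ferritin heavy chain *Fth1* had -0.04 (adjusted p = 0.598). Of 24 zinc and copper genes, 7 were higher and 1 lower, with the zinc carriers *Slc30a4* (0.57) and *Slc39a6* (0.34) highest and *Commd1* (-0.33) lower. *Mtf1*, the metal-sensing activator of *Mt1* and *Mt2*, had 0.06 (adjusted p = 0.359). Of 16 glucocorticoid-induced genes, 9 were higher and 0 lower with a median of 0.42, led by *Fkbp5* (0.93) and *Cdkn1a* (0.89). The summed level of the 16 was 611 to 1247 FPKM in control and 679 to 2169 in ANG II samples. Much of this sum was *Pdk4*, with means of 333 and 409 FPKM, which was not called (limma, adjusted p = 0.699). The part of glucocorticoids in the change of *Mt1* and *Mt2* was not tested.

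**Figure D5:**
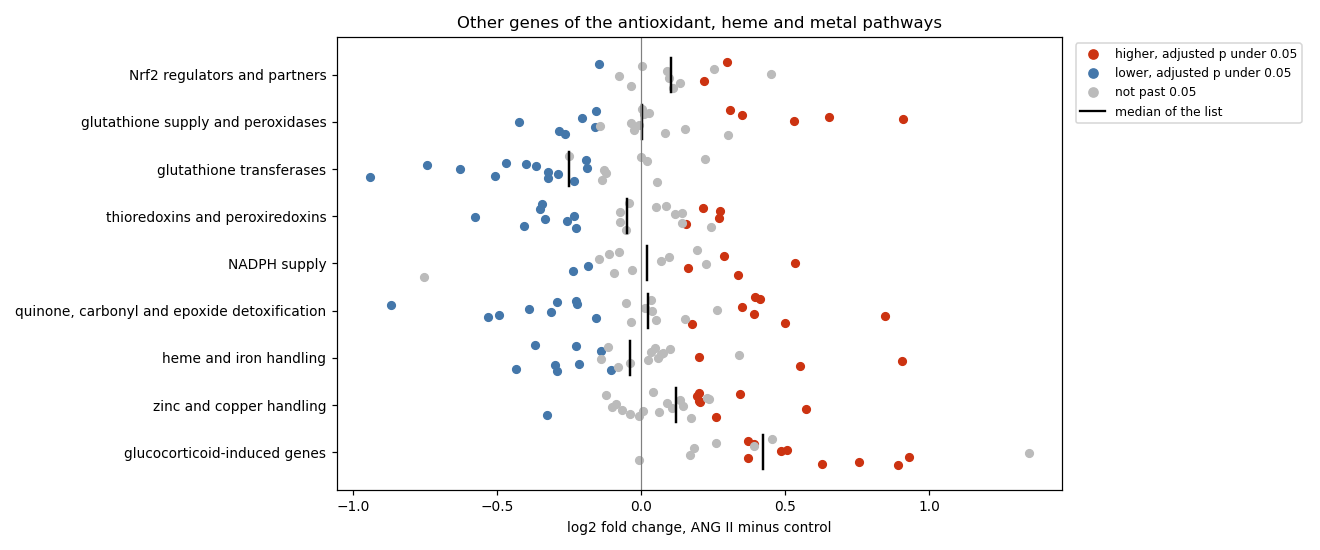
Log2 fold changes of ANG II against control for the other genes of 9 lists, one point per gene, red or blue where the adjusted p was under 0.05 and grey otherwise, with a black bar at the median of each list. The medians ran from -0.25 for glutathione transferases to 0.42 for glucocorticoid-induced genes.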

How the data were processed

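Left ventricular RNA of 12 ANG II and 12 control mice was selected with oligo(dT) and sequenced. The submitters' processing notes name HISAT, Bowtie2 and RSEM, and the genome build is not given in the sources used here. The authors deposited 1 FPKM value per gene and sample. Negative values and ties showed that these were adjusted, and the ties gave 4 sets of samples. The methods do not name this step, so the differences before it were recovered (step 0.01 FPKM, tolerance 0.0008 of a step). The paper used more samples per group, which were not analysed here. The sets are not a labelled batch.

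log2(FPKM + 1), with negative values set to 0, was fitted with limma 3.58.1 in R 4.3.3 with an intensity trend, for genes with a mean of at least 0.1. A call is a Benjamini-Hochberg adjusted p under 0.05, and all tests were two-sided. Permutations used Python 3.11.15 with scipy 1.17.1. Scripts were tested on simulated data. Gene positions are from GENCODE vM21 and promoters from RefSeq. The members and gene lists were chosen with earlier results of these data known. All 10 members are named, and in each list the 2 largest rises and 2 largest falls that passed. For each member, genes are named from the 3 most correlated. Groups and numbers are from the sample titles, and each sample is a separate mouse. The labels do not call same-numbered samples a pair and their deviations did not correlate positively, so no block was used. That check cannot exclude pairing, and the fit with a block is given among the alternatives. Alternatives were a pseudocount of 0.1, other filters on low values, median-ratio and quantile scaling, no trend, a Wilcoxon test, the set as a term, the replicate block, and leaving out each mouse or set. The recovered differences, the exact test on them, the lists without each set and set 4 without ANG II sample 12 were added after seeing the data.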

Additional observations from a re-analysis of the deposited data

Results flagged for a closer look

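For 3 of the 10 genes the difference between ANG II and control was not the same in the 4 sets of samples (set 1 with samples 1 to 3 of each group, and so on), by a test of the difference itself (limma, set-by-group interaction, adjusted over all genes). The adjusted p was 0.00484 for *Nqo1*, 0.0098 for *Hmox1* and 0.0347 for *Mt2*, beside 7.49% of all genes past the threshold. For *Hmox1* the test used the deposited values, with 2 negative control values of set 4 set to 0. *Nqo1* was lower with ANG II in set 3 and higher in sets 2 and 4, while its groups overlapped in set 1. *Hmox1* rose most in sets 3 and 4, and *Mt2* was lower with ANG II in set 2. The labels do not say what set these samples apart, and the cause was not tested.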

How the results depend on the processing

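The count of 6 genes called, all higher, was 5 or 6 under a pseudocount of 0.1, other filters, other scalings, no trend, the Wilcoxon test, the set as a term and the replicate block, and 6 to 8 when any one mouse was left out. It was 2 without set 1, 3 without set 4, 4 without set 3 and 6 without set 2. *Gsr* reversed to -0.0164 under quantile normalization and to -0.0484 without set 2, and neither value passed the test. The pathway genes called (41 higher, 48 lower) numbered 80 to 94 with any one mouse left out, but 63 with the replicate block (24 higher, 39 lower), 65 without set 2 (24 and 41) and 66 without set 3 (29 and 37). The marker genes called (35, of which 26 higher) were 22 with the replicate block (17 higher) and 15 without set 2 (8 higher), and 27 to 36 with any one mouse left out. Calls over all genes fell too, from 2928 higher and 1769 lower to 1586 and 1238 with the replicate block. They were 1173 and 1629 without set 2, and 2495 and 1303 without set 3. The cause was not tested.

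Deviations of same-numbered samples from their group means had correlations of -0.557 to -0.001, and 0 of 12 were over 0.1. The values had been adjusted within sets over both groups, which can lower these correlations, so they cannot exclude that the samples were paired. With the replicate number as a block 5 genes were called, and *Nfe2l2* was not (adjusted p = 0.0867). With a set left out, *Mt1* missed the threshold without set 1 (limma, adjusted p = 0.0648) and without set 3 (0.172), and *Mt2* without set 1 (0.0744), set 3 (0.152) and set 4 (0.0595). *Nfe2l2* and *Gclc* each missed it without set 1, 2 or 4, *Hmox1* without set 3 (0.0507), and *Gclm* passed each time. These fits use fewer samples. The number of reads per sample is unknown, so no counting error can be given.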
